A study of Arabidopsis thaliana with 15 samples.

Results

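WRKY53, STZ, PUB22 and PUB24 are Arabidopsis thaliana genes that respond within a short time to stress and to microbial elicitors. They were followed here on 15 root arrays. Each had 1 probe set annotated to it alone, so the members were 4 of the 22746 probe sets left after 64 control probe sets. Their loci are AT4G23810 (WRKY53), AT1G27730 (STZ), AT3G52450 (PUB22) and AT3G11840 (PUB24). The genes were chosen by name after their levels in the genotypes, on these same arrays, had been seen. Their signals are therefore given as a description, without a test. Signal is the MAS5 intensity of a probe set, in arbitrary units, and one gene's signal is not comparable with another's. All 4 passed the filter on dim probe sets, a geometric mean signal of 115, which 13648 probe sets passed and which sets the background given beside each count.

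RNA came from roots of 2-week-old plants of 5 genotypes, 3 arrays each, grown on modified Knop's medium at 23°C with 16 h of light and 8 h of dark. Col-0 and WS are wild-type ecotypes. The triple mutant grf1/grf2/grf3 is disrupted in 3 growth-regulating factor genes and is labelled with both ecotypes, so neither wild type matches it fully. P35S:rGRF1 (ecotype label Col-0) and P35S:rGRF3 (ecotype label WS) are transgenic lines in which the CaMV 35S promoter, active in most tissues, drives a form of GRF1 or GRF3 that the microRNA miR396 cannot target. The number of independent lines behind each is not given in the sources used here. The series was made to find root genes under the control of GRF1 and GRF3. The probe sets of the GRF genes were not analysed here, so the genotype labels were not checked on them.

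Plants perceive microbial patterns through receptor kinases at the cell surface, and a burst of calcium, reactive oxygen and MAP kinase activity is followed by a rapid wave of transcription. WRKY53 encodes a WRKY transcription factor, a class that binds W-box elements, and is also known as a regulator of leaf senescence. STZ, also called ZAT10, encodes a C2H2 zinc-finger repressor induced by salt, cold, drought and reactive oxygen. PUB22 and PUB24 encode U-box E3 ubiquitin ligases, which with their relative PUB23 restrain pattern-triggered immunity, PUB22 by targeting the exocyst subunit Exo70B2.

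The arrays fell into 2 sets on their spiked controls. The 18 hybridization control probe sets averaged 10.72 to 11.2 (log2 signal) on the 6 WS and mutant arrays and 9.679 to 10.33 on the 9 others. For the spiked poly-A RNAs, 3' probe sets exceeded 5' ones by 1.6 to 2.24 and 1.16 to 1.76 (log2), which overlap. Comparisons of Col-0 with WS or with the mutant, and of WS with P35S:rGRF3, cross the sets, and there the effect of the array set and that of the genotype cannot be told apart. Replicate 3 of P35S:rGRF3 stood apart at the 24 poly-A control probe sets, at 6.961 against 9.017 and 8.78 on replicates 1 and 2 (log2 signal). Of 28 listed root markers, the root hair expansin genes EXPA7 and EXPA18 had a probe set of their own. Their summed signal was 1550 to 2250 for Col-0, 1770 to 2200 for P35S:rGRF3, 1200 to 1610 for P35S:rGRF1, 1210 to 1380 for the mutant and 958 to 1100 for WS, and so was lowest in WS as the members were. Of 30 listed leaf markers 4 had one. RCA and LHCB4.1 passed the filter, SBPASE and PRK did not. The 4 summed to 1460 to 2510 for Col-0, 2360 to 2600 for WS, 1420 to 2320 for the mutant, 2560 to 2630 for P35S:rGRF1 and 1460 to 2170 for P35S:rGRF3. Such a sum weighs the brightest genes most, here RCA and LHCB4.1, and these differed. In mean log2 signal RCA stood at 10.17 in the mutant and 10.04 in P35S:rGRF1, LHCB4.1 at 9.1 and 10.42. The sum is thus no measure of leaf content. The part of these marker differences in the results below was not tested, and in whole roots fewer cells of a type and less RNA per cell cannot be told apart. No label says that replicates were separate cultures, so their spread may be technical.

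WRKY53 was low in WS and the mutant and high in the 3 other genotypes. Its signal was 1053, 941 and 441 on Col-0 replicates 1 to 3, and 267, 280 and 176 on those of WS. The mutant arrays read 290, 205 and 287. P35S:rGRF1 read 779, 551 and 471, and P35S:rGRF3 read 1451, 1254 and 537. Every array of Col-0 and the 2 transgenic lines lay above every WS and mutant array, while Col-0, P35S:rGRF1 and P35S:rGRF3 overlapped with each other, as did WS and the mutant. In mean log2 signal the order was P35S:rGRF3 (9.95 ± 0.77, SD, n = 3), Col-0 (9.57 ± 0.68), P35S:rGRF1 (9.2 ± 0.37), the mutant (8.01 ± 0.28) and WS (7.88 ± 0.37). Only the step from P35S:rGRF1 to the mutant separated neighbours in that order without overlap. The geometric mean in Col-0 was 3.21-fold that in WS and 2.95-fold that in the mutant, and folds below are ratios of geometric means.

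STZ also had its lowest level in WS, but the mutant was not low at this gene. Its signal was 776, 1158 and 1308 on WS replicates 1 to 3. It was 2034, 3333 and 5948 on the mutant arrays. All mutant arrays thus exceeded all WS arrays, and the mutant mean was 3.25-fold that of WS (log2 signal 11.74 ± 0.77 against 10.04 ± 0.39, SD, n = 3). Col-0 read 4225, 7731 and 2685, and its range overlapped that of the mutant. P35S:rGRF3 read 5088, 4277 and 2442, inside the Col-0 range except for replicate 3, which lay just below it. P35S:rGRF1 read 3556, 1545 and 1251, so that its replicate 1 lay with Col-0 and its replicate 3 with WS. Neighbouring genotypes in the order of means, Col-0 (12.12), P35S:rGRF3 (11.88), the mutant (11.74), P35S:rGRF1 (10.89) and WS (10.04), all overlapped.

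PUB22 divided the genotypes as WRKY53 did, with a narrower spread. Its signal was 773, 1163 and 1044 on Col-0 replicates 1 to 3, and 936, 918 and 973 in P35S:rGRF1. P35S:rGRF3 was highest, at 1808, 1191 and 1163. WS read 402, 341 and 329 and the mutant read 336, 470 and 471. No array of the first 3 genotypes fell into the range of the last 2. The highest Col-0 array and the lowest P35S:rGRF3 array had the same signal, so these genotypes met without a gap, and in mean log2 signal they stood at 9.94 ± 0.31 and 10.41 ± 0.36 (SD, n = 3). The arrays of P35S:rGRF1 varied by 0.04 (SD, log2), the narrowest spread of PUB22 in any genotype. The Col-0 mean was 2.75-fold that of WS and 2.33-fold that of the mutant.

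PUB24 was the member with the cleanest order. Its signal was 607, 725 and 572 on Col-0 replicates 1 to 3. It was 396, 403 and 371 in P35S:rGRF1 and 363, 321 and 290 in P35S:rGRF3. The mutant read 229, 209 and 261, and WS read 172, 181 and 203. None of the 10 pairs of genotypes overlapped, which held for 0.396% of the 13648 probe sets tested. The number of such pairs was 6 for WRKY53, 3 for STZ and 7 for PUB22, with a median of 5 over all probe sets tested. In mean log2 signal the order was Col-0 (9.3 ± 0.18, SD, n = 3), P35S:rGRF1 (8.61 ± 0.06), P35S:rGRF3 (8.34 ± 0.16), the mutant (7.86 ± 0.16) and WS (7.53 ± 0.12). Col-0 thus stood 1.62-fold above P35S:rGRF1, 1.95-fold above P35S:rGRF3, 2.72-fold above the mutant and 3.41-fold above WS.

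**Figure D1:**
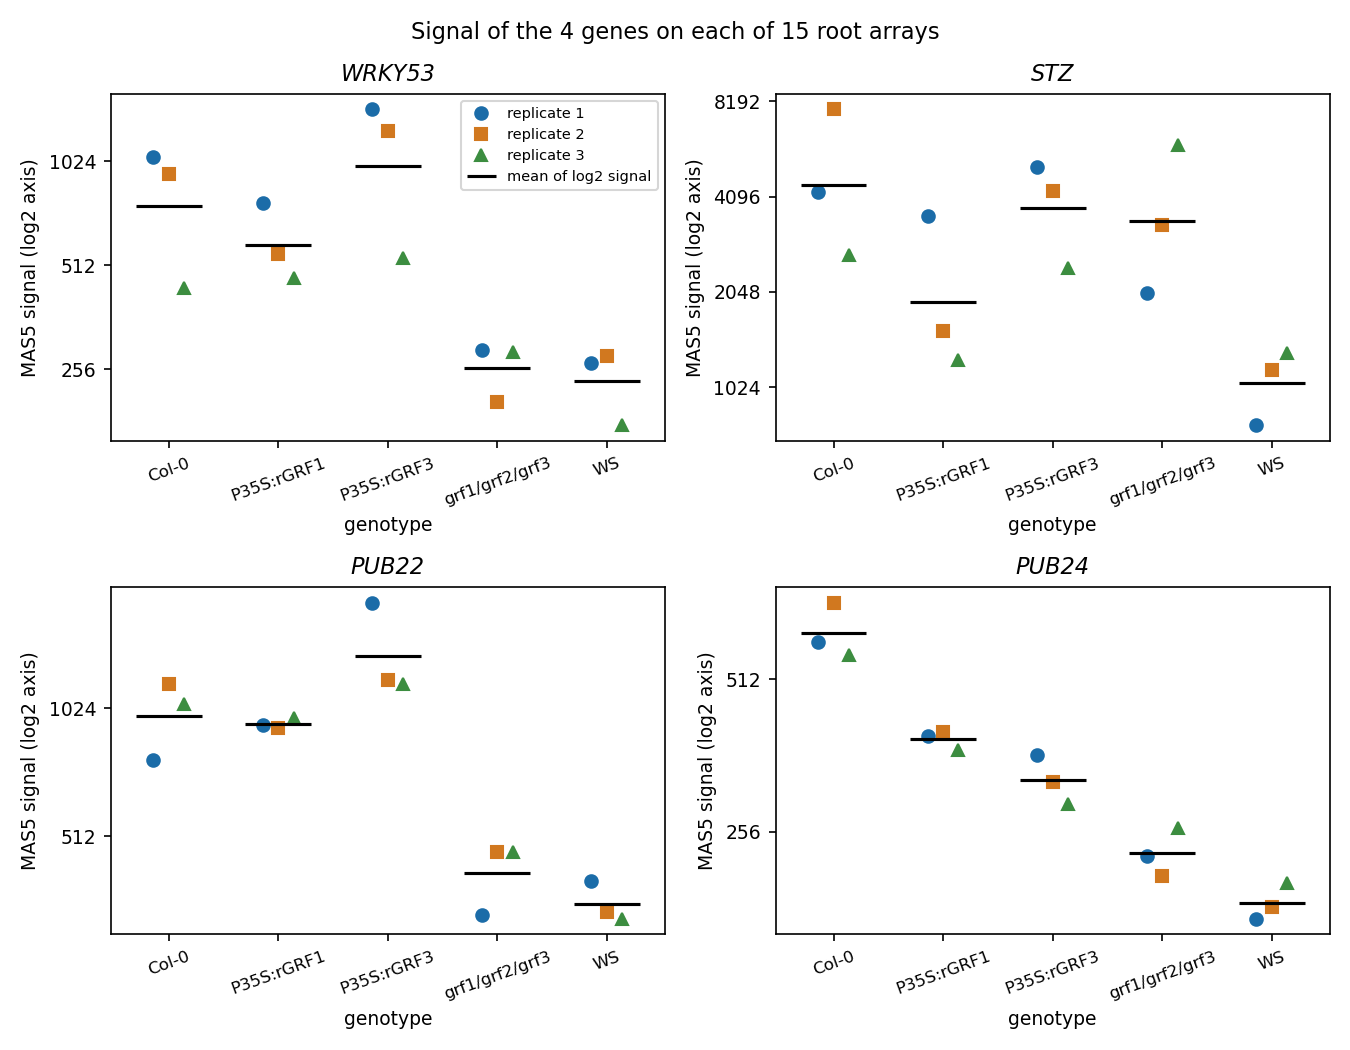
MAS5 signal (log2 axis) of WRKY53, STZ, PUB22 and PUB24 on each array, by genotype, with a symbol for each replicate and a line at the mean of log2 signal. WS is lowest in every panel, the mutant is near WS except at STZ, and only PUB24 shows 5 genotypes without overlap.

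Across the array sets the genes moved together, except STZ in the mutant against Col-0. In WS against Col-0 the 4 members were lower with no overlap, where 22.7% of all probe sets tested were lower and 35.5% higher without overlap. Their log2 differences were -2.07 at STZ, -1.77 at PUB24, -1.68 at WRKY53 and -1.46 at PUB22. In P35S:rGRF3 against WS, the ecotype of its label, the 4 were higher with no overlap (21.1% of all probe sets higher, 35.3% lower). The log2 differences were 2.07 at WRKY53, 1.93 at PUB22, 1.83 at STZ and 0.81 at PUB24. Without replicate 3 of P35S:rGRF3 they were 2.51, 2.04, 2.14 and 0.88. Of all probe sets tested, limma called 7147 for P35S:rGRF3 against WS (adjusted p under 0.05). It called 7058 for WS against Col-0, but 1626 for P35S:rGRF3 against Col-0. By these counts the line lay nearer to Col-0 than to WS, the ecotype of its label. The part of the array set in this was not tested. In the mutant against Col-0, 3 of 4 were lower with no overlap (19.8% of all probe sets lower, 33.9% higher). The log2 differences were -1.56 at WRKY53, -1.45 at PUB24 and -1.22 at PUB22, while STZ differed by -0.37 with overlapping arrays. The first of these comparisons shares its WS arrays with the second and its Col-0 arrays with the last, so they are not separate observations of a pattern. The hybridization controls differed in the same comparisons, at 9.679 to 10 (Col-0), 9.688 to 10.33 (P35S:rGRF3), 10.85 to 11.2 (WS) and 10.72 to 10.81 (the mutant), and their part was not tested.

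Within the array sets the members went different ways. In the mutant against WS, STZ (log2 difference 1.70) and PUB24 (0.33) were higher with no overlap, against 17.3% of all probe sets higher and 17.6% lower in that way. WRKY53 (0.12) and PUB22 (0.24) overlapped. In P35S:rGRF1 against Col-0, PUB24 was lower with no overlap (-0.70), where 14.9% of all probe sets were lower and 19.6% higher. STZ had a larger mean difference, -1.22, but its arrays overlapped, and WRKY53 (-0.37) and PUB22 (-0.06) overlapped as well. With 1 array left out, WRKY53 ran from -0.13 (without Col-0 replicate 1) to -0.76 (without Col-0 replicate 3). In P35S:rGRF3 against Col-0, PUB24 was again the single member without overlap (-0.97, with 13.0% of all probe sets lower and 11.5% higher). PUB22 (0.47), WRKY53 (0.39) and STZ (-0.24) overlapped, and without replicate 3 of P35S:rGRF3 these were 0.58, 0.83 and 0.07. With all arrays, PUB24 therefore lay below Col-0 in both transgenic lines while PUB22, its relative, did not separate from Col-0 in either. The overlap of PUB22 and WRKY53 in P35S:rGRF3 rested on its replicate 3. The other arrays read 1808 and 1191 at PUB22 and 1451 and 1254 at WRKY53. They lay above every Col-0 array (at most 1163 and 1053), while STZ still overlapped. No share over all probe sets was computed without that array. The comparisons of the 2 lines share the Col-0 arrays.

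**Figure D2:**
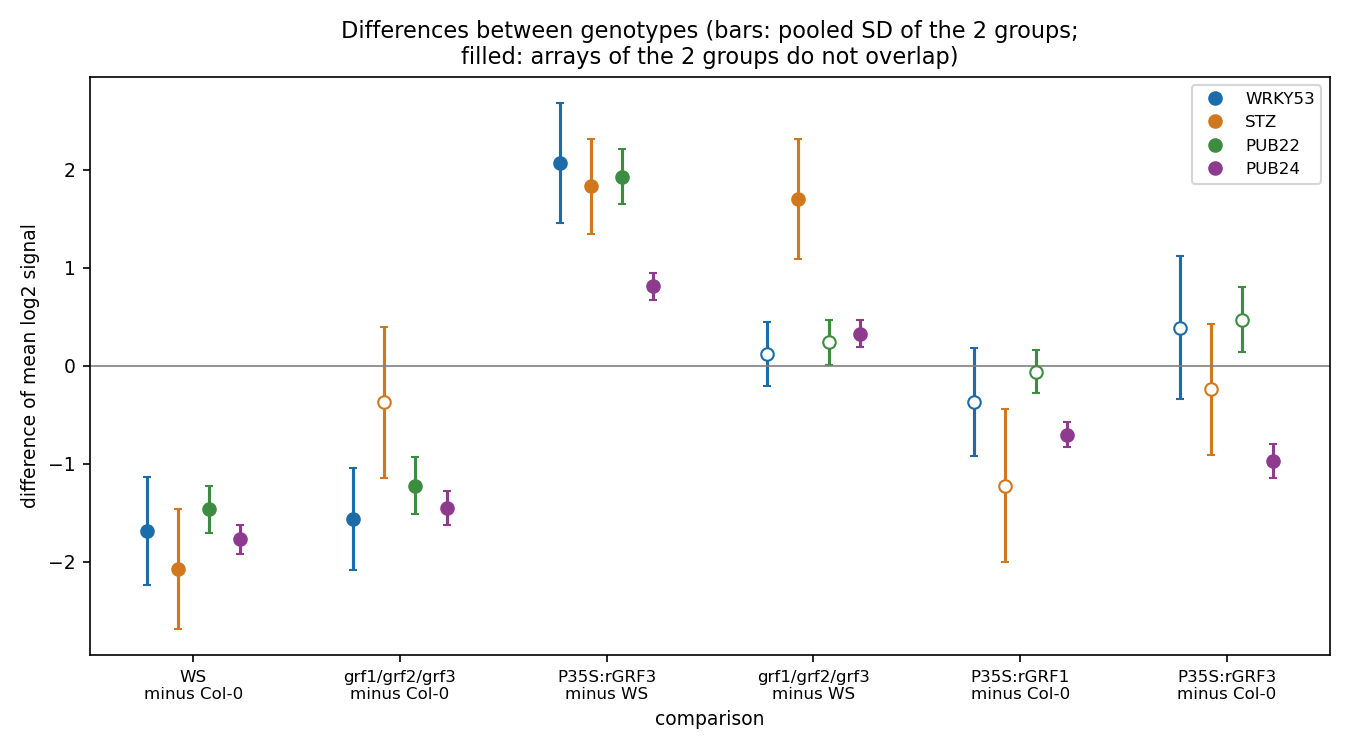
Difference of mean log2 signal (vertical axis) for the 4 genes in 6 comparisons, with bars for the pooled SD of the 2 groups of 3 arrays, filled where their arrays do not overlap. The comparisons on the left cross the array sets and the members move together, except STZ in the mutant against Col-0, while on the right PUB24 alone separates both lines from Col-0.

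The genes also differed in how far replicates of 1 genotype lay apart. The pooled SD of log2 signal within genotypes was 0.68 for STZ and 0.53 for WRKY53, against a median of 0.18 over all probe sets tested, and 0.637% and 1.65% of these had a larger SD. It was 0.26 for PUB22 and 0.14 for PUB24, with 20.7% and 74.2% of probe sets above them. The range of genotype means was similar for all members, 4.21-fold for STZ, 4.2-fold for WRKY53, 3.82-fold for PUB22 and 3.41-fold for PUB24, against a median of 1.57-fold. A like range of means thus rested on very different replicate spreads, and the transcription factor genes were less precisely placed than the ligase genes.

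Deviations of single arrays from their genotype mean were partly shared. On the P35S:rGRF3 arrays all 4 genes were highest on replicate 1 (0.55 at WRKY53, 0.44 at STZ, 0.41 at PUB22 and 0.17 at PUB24, log2) and lowest on replicate 3 (-0.88, -0.62, -0.22 and -0.16). Col-0 replicate 3 was lowest at WRKY53 (-0.78), STZ (-0.73) and PUB24 (-0.14) but not at PUB22 (0.09). Replicate 3 of the mutant was high at STZ (0.79) and PUB24 (0.17), and P35S:rGRF1 replicate 1 was high at STZ (0.90) and WRKY53 (0.41). Over the 15 arrays the correlation of these deviations was 0.75 between STZ and PUB24, 0.57 between STZ and WRKY53, 0.52 between WRKY53 and PUB24, 0.38 between STZ and PUB22, 0.37 between PUB22 and PUB24 and 0.12 between WRKY53 and PUB22. These values describe 15 points of which the 3 of each genotype sum to 0. WRKY53 and PUB22, whose genotype means had the same order, thus shared little within genotypes.

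**Figure D3:**
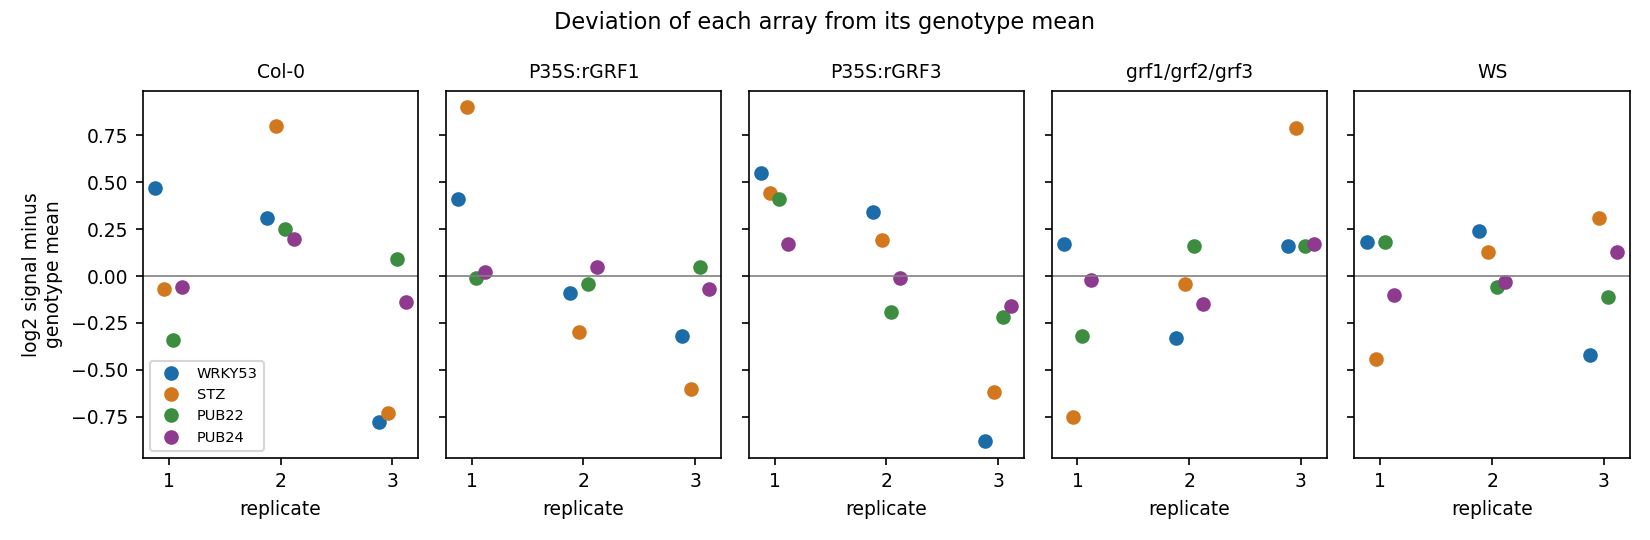
Deviation of log2 signal from the genotype mean (vertical axis) on each replicate array, by genotype, for the 4 genes. STZ and WRKY53 spread most, and on the P35S:rGRF3 arrays all 4 genes are high on replicate 1 and low on replicate 3.

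The genes most like each member were found by Pearson's r of log2 signal over the 15 arrays, among 7304 genes with a tested probe set of their own. As the 3 arrays of a genotype share its mean, the r of the deviations within genotypes is given for some genes as well. All of these are descriptions. For WRKY53 the closest was CSLC04, a cellulose synthase-like gene (r = 0.958, deviations 0.85), followed by AT1G17620 (0.939), AT3G25600 (0.914), AT4G15810 (0.912) and AT3G07600 (0.909). For STZ they were AT4G27280 (r = 0.963, deviations 0.94), AT5G17350 (0.960, deviations 0.97), AT1G14480 (0.955, deviations 0.95), AT1G23710 (0.951) and AT2G39650 (0.951). For all 5 genes nearest to STZ the r of the deviations was 0.92 or above. The r by which they were picked contains these deviations, which are wide at STZ, so this is not a separate likeness. Of the 5 genes, AT5G17350 read 117 to 281 for WS, 322 to 981 for the mutant and 531 to 1871 for Col-0.

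PUB22 was most like AT5G05880 (r = 0.959, deviations 0.71), AT4G39670 (0.957), AT4G25030 (0.957), AT4G04990 (0.956, deviations 0.30) and AT5G46080 (0.953). PUB24 was most like AR781 (r = 0.971, deviations 0.85), AT5G54940 (0.963), AT1G23830 (0.955), AT3G59080 (0.952) and AT5G23830 (0.949, deviations 0.14). No member was among the 5 genes nearest to another. Of the other members, WRKY53 and PUB22 were nearest to each other (r = 0.86), and STZ was the most distant, at 0.51 from PUB22 and 0.58 from WRKY53 and PUB24. The third ligase of the group, PUB23, ranked 12 of 7304 for PUB22 (r = 0.95), 11 for WRKY53 (0.90), 229 for PUB24 (0.82) and 242 for STZ (0.64). By deviations within genotypes the ranks of PUB23 were 723 for PUB22 (0.44), 996 for WRKY53 (0.43), 3 for PUB24 (0.89) and 52 for STZ (0.81). It was thus nearer to PUB22 and WRKY53 by r and nearer to PUB24 and STZ by deviations.

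Related stress and immune genes were taken from 9 lists of WRKY factors, zinc fingers of the STZ type, U-box ligases, immune signalling, elicitor markers, rapid stress factors, touch, wounding and jasmonate, salicylic acid and senescence. Of these, 24 genes had a probe set of their own and 17 passed the filter. The 24 were 6 of 71 WRKY factors, 0 of 9 zinc fingers, 7 of 22 U-box ligases and 2 of 36 immune signalling genes. They also held 1 of 24 elicitor markers, 1 of 28 rapid stress factors and 4 of 31 touch, wounding and jasmonate genes. The rest were 2 of 18 salicylic acid genes and 1 of 21 senescence genes. Most listed genes were thus not seen, and the counts below do not stand for whole lists. None of the 24 is a member, and limma was run on all 13648 probe sets, with calls at an adjusted p under 0.05. The lists were chosen with earlier results of these same arrays known. The counts and p-values of the listed genes are therefore no independent support for the pattern of the members. In WS against Col-0, 8 of the 17 were lower and 1 was higher, where 20.3% of all probe sets tested were called lower and 31.4% higher. Their median log2 difference was -0.73, against 0.11 over all probe sets. CML38, a wound-induced calmodulin-like gene, fell by 2.42 (SE 0.54, limma adjusted p = 0.00141). GRX480, a salicylic acid-induced glutaredoxin gene, fell by 1.91 (SE 0.27, limma adjusted p = 2.92e-05). PUB23 fell by 1.61 (SE 0.17, limma adjusted p = 1.51e-06). PUB19, a ligase of drought and abscisic acid signalling, differed by -1.52. WRKY22 of MAP kinase-linked immune signalling (-0.99), CML42 (-0.82), the receptor-associated kinase gene BIK1 (-0.74) and WRKY6 (-0.73) were also lower, and PUB49 was higher (0.38).

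The arrays of PUB23 can be set beside those of its relatives. It read 1867 to 2874 for Col-0, 1480 to 1984 for P35S:rGRF1, 2176 to 2965 for P35S:rGRF3, 792 to 1060 for the mutant and 629 to 803 for WS. As PUB22 was, it was lower in WS and the mutant than in the 3 other genotypes without overlap, and P35S:rGRF1 and P35S:rGRF3 each overlapped with Col-0. In P35S:rGRF1 against Col-0 its difference of -0.37 did not pass (SE 0.17, limma adjusted p = 0.179), but with array weights it did (-0.58, limma adjusted p = 0.00842).

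In P35S:rGRF3 against WS, 8 of the 17 rose and 2 fell, where 19.4% of all probe sets were called higher and 33.0% lower, with a median of 0.50 against -0.13. The rise was 2.59 at CML38 (SE 0.54, limma adjusted p = 0.000768), 2.39 at ORA47, a jasmonate-linked AP2/ERF factor gene (SE 0.69, limma adjusted p = 0.00831), and 2.36 at GRX480. PUB23 (1.78), BIK1 (1.44), WRKY22 (1.26), CML42 (0.72) and WRKY6 (0.69) rose too, and PUB49 (-0.42) and WRKY47 (-0.41) fell. The call of WRKY47 was lost when any of 5 of the 6 arrays was left out, all but replicate 3 of P35S:rGRF3, and without that array 11 genes were called. WRKY47 also lost its call without the filter (limma adjusted p = 0.0613), after quantile normalization (-0.28) or median centring (-0.30), and with only the 2 groups fitted (limma adjusted p = 0.0882). In the mutant against Col-0, 5 fell and 2 rose, beside 17.0% and 28.1% of all probe sets. The genes that fell were PUB23 (-1.30), CML42 (-0.81), WRKY22 (-0.80), WRKY6 (-0.69) and BIK1 (-0.37). The median over all 17 genes tested was -0.27, against 0.10 over all probe sets. PUB26, which encodes a ligase that acts on BIK1, rose by 0.90, and WRKY20 by 0.33. The call of WRKY22 was lost without Col-0 replicate 2 (-0.65) or mutant replicate 1 (-0.61), and that of PUB26 without Col-0 replicate 3 (0.73) or mutant replicate 3 (0.69). WRKY20 lost its call without any of 4 arrays, with the lowest value without Col-0 replicate 3 (0.18). It also lost it without the filter (limma adjusted p = 0.0595), after quantile normalization or median centring (0.27 each), and with only the 2 groups fitted (limma adjusted p = 0.121). All 3 comparisons cross the array sets.

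Within the sets fewer of these genes were called. In the mutant against WS, limma called 3 of 17 higher and 0 lower, beside 7.38% and 6.54% of all probe sets. GRX480 rose by 1.31 (SE 0.27, limma adjusted p = 0.00461), with WS arrays at 157 to 206 and mutant arrays at 401 to 476. PUB19 rose by 1.25 (SE 0.39, limma adjusted p = 0.0405) and BIK1 by 0.37 (SE 0.10, limma adjusted p = 0.0214). The call of GRX480 held with each array left out, that of PUB19 was lost with any of the 6 left out (1.11 to 1.41), without the filter (limma adjusted p = 0.0675) and after quantile normalization (limma adjusted p = 0.0571). That of BIK1 was lost without WS replicate 1 (0.32), mutant replicate 1 (0.34) or mutant replicate 2 (0.33). At an unadjusted p under 0.05, 7 were higher and 0 lower. The share of all probe sets at that threshold was not computed, so these counts have no background to be read against. STZ and GRX480 thus both read higher in the mutant than in WS on every array, while PUB23 did not pass (0.31, limma adjusted p = 0.264).

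In P35S:rGRF1 against Col-0 limma called 0 of the 17 genes, beside 5.30% of all probe sets higher and 5.17% lower. At an unadjusted p under 0.05, 1 was higher and 4 lower, again with no share over all probe sets computed. ORA47 was at -2.04 (limma adjusted p = 0.0705) and PUB19 at -1.09 (limma adjusted p = 0.0822), and without Col-0 replicate 3 these passed at -2.69 (limma adjusted p = 0.0219) and -1.44 (limma adjusted p = 0.0293), as did GRX480 (-0.94, limma adjusted p = 0.0404). ORA47 also passed without P35S:rGRF1 replicate 1 (-2.82, limma adjusted p = 0.0269). In P35S:rGRF3 against Col-0 limma called 1 gene higher and 0 lower, beside 5.30% and 6.61% of all probe sets. With an unadjusted p under 0.05 there were 2 higher and 2 lower, also without a computed background. The called gene was BIK1, which rose by 0.70 (SE 0.10, limma adjusted p = 0.000233). BIK1 read 1623 to 1772 for P35S:rGRF3, 985 to 1107 for Col-0, 953 to 989 for P35S:rGRF1, 726 to 857 for the mutant and 573 to 652 for WS, with overlap only between Col-0 and P35S:rGRF1. With 1 array left out, 2 to 4 genes were called, beside 973 to 1793 probe sets. Without replicate 3 of P35S:rGRF3 there were 4 (beside 1478 probe sets), as EXO (0.94), GRX480 (0.84) and WRKY47 (-0.68) also passed. The second gene was WRKY47 without Col-0 replicate 1 (-0.56), SAG101 without Col-0 replicate 2 (0.82), PUB19 without Col-0 replicate 3 or P35S:rGRF3 replicate 1 (-1.37 each) and EXO without P35S:rGRF3 replicate 2 (0.87).

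**Figure D4:**
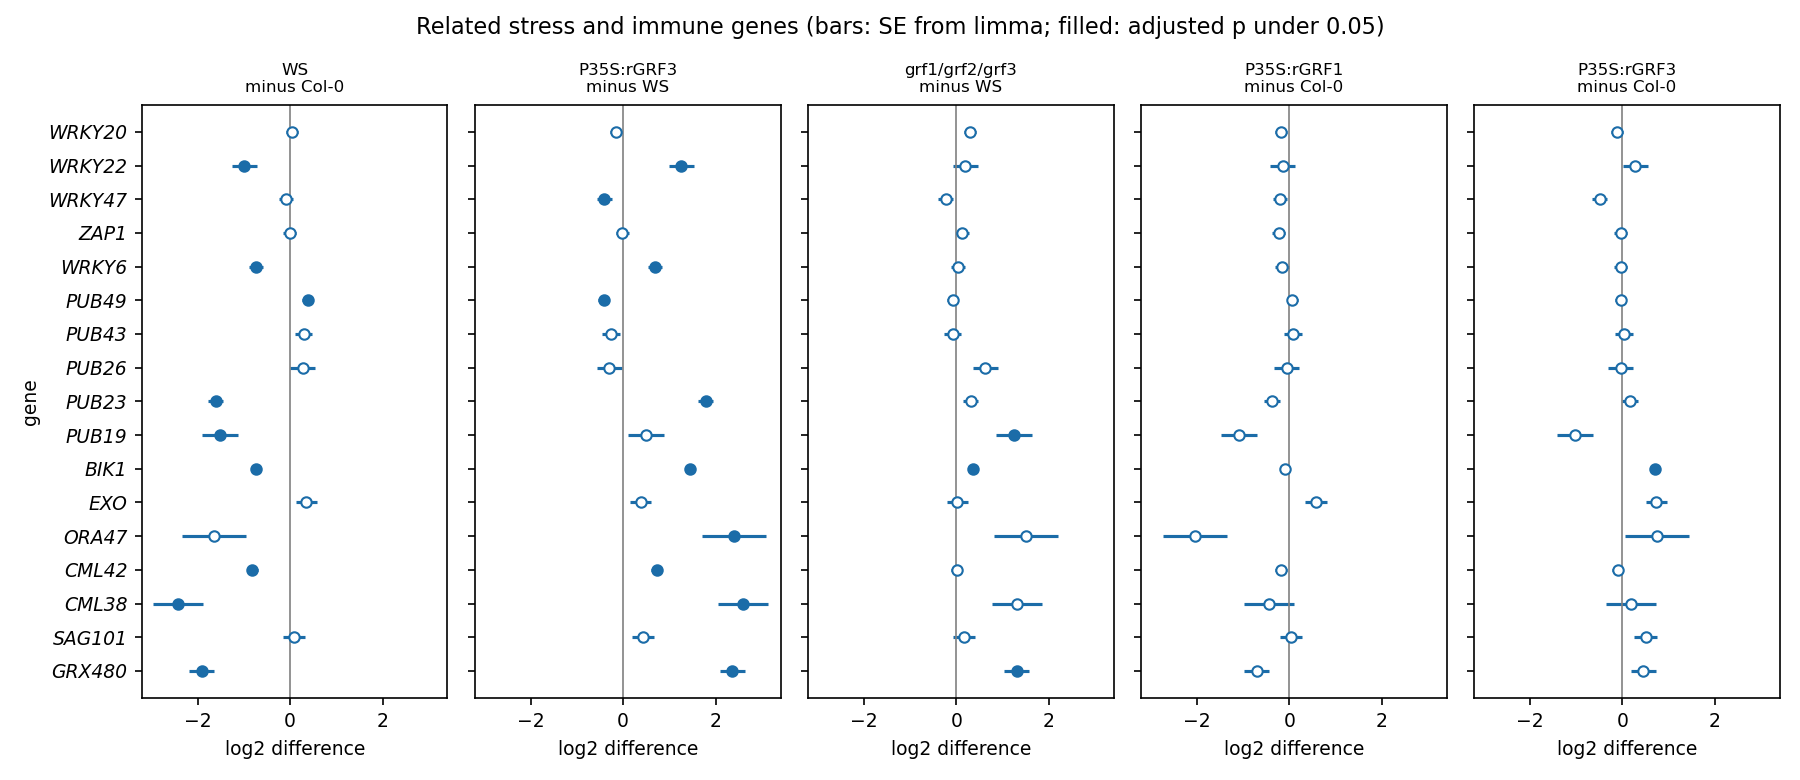
Log2 difference (horizontal axis, bars for the SE from limma) of the 17 related stress and immune genes tested, in 5 comparisons, filled where the adjusted p is under 0.05. Most filled points lie left of 0 in WS minus Col-0 and right of 0 in P35S:rGRF3 minus WS, and 3, 0 and 1 points are filled in the panels to the right of these.

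With all arrays, 4 of the tested genes were called in none of the 6 comparisons. EXO, a brassinosteroid-responsive growth gene on the elicitor list, read 288 to 420 for Col-0 and 451 to 971 for P35S:rGRF3, a difference of 0.73 (limma adjusted p = 0.0532). SAG101, a lipase-like partner of the immune regulator EDS1, ZAP1 of the WRKY family and PUB43 were the others. EXO did pass in that comparison after quantile normalization (0.76, limma adjusted p = 0.0431) or median centring (0.77, limma adjusted p = 0.0403), and PUB43 did in WS against Col-0 with array weights (0.38, limma adjusted p = 0.0389). Another 7 genes lay below the filter and were not tested. They include EFR, a receptor for a bacterial elongation factor, at a signal of 2.43 to 20.4 over the 15 arrays, PDF1.2, and the senescence gene SAG29. CML37, also below it and singled out after its values were seen, read 256 to 610 for Col-0, 113 to 346 for P35S:rGRF3, 72.1 to 211 for P35S:rGRF1, 80.8 to 160 for the mutant and 2.56 to 23.4 for WS. WRKY42, PUB15 and PUB25 were the other 3. None of the 9 other zinc-finger genes of the STZ type had a probe set with a single annotation, and they were not analysed here.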

How the data were processed

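The deposited values are MAS5 signal intensities on a linear scale for 22810 probe sets on 15 arrays. MAS5 is named in the submitters' processing notes, and its version is not given in the sources used here. No detection calls were used. Because the medians of the arrays lay within 0.149 of each other on the log2 scale, log2 of the signal was used without an offset or rescaling. Names came from the platform annotation (13513 probe sets with 1 gene), updated through a RefSeq gene table of TAIR10.1. No 2 arrays were identical, with correlations of at most 0.9621. The number of arrays limits the precision.

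Probe sets at or above the 40th percentile of mean log2 signal (6.845) were tested, 13648 in all. Genotype means were fitted over all 15 arrays with lmFit and trended eBayes (limma 3.58.1, R 4.3.3), two-sided, with Benjamini-Hochberg adjustment over all probe sets, and was tested on simulated data. The 4 members and the lists were chosen with earlier results of these data known. Named genes are the members, the 5 nearest by r, up to 3 called genes per list, direction and comparison, and where a list had no call its brightest genes. Values of SAG101, ZAP1, PUB43, EFR, PDF1.2, SAG29 and CML37 are given to account for the lists. The alternatives changed the filter (none, or the 60th percentile), the offset (16), the scaling (quantile, median) or the weighting of arrays, added a replicate block, fitted only the groups compared, or left out each array.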

Additional observations from a re-analysis of the deposited data

How the results depend on the processing

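The differences of the 4 members moved by less than 1 SD between replicates under every alternative run for them (240 values). The alternatives were an offset of 16, quantile normalization, median centring, the replicate block and each array left out. In groups this small, omitting 1 array moves a difference by less than 1 pooled SD of the groups compared, whatever the values. The replicate block cannot change the differences, as each genotype has 1 array of each replicate number. The limit of 1 SD could thus be exceeded only with the offset, quantile normalization or median centring. For the other alternatives it says nothing on how stable the differences are. Leaving out 1 array turned the sign of WRKY53 in the mutant against WS (-0.09 to 0.29) and of STZ in P35S:rGRF3 against Col-0 (-0.60 to 0.16) and in the mutant against Col-0 (-0.77 to 0.03), as of PUB22 in P35S:rGRF1 against Col-0 (-0.23 to 0.07). WRKY53 ranged from 0, where its sign just turned as well, to 0.83 in P35S:rGRF3 against Col-0. It ranged from -0.76 to -0.13 in P35S:rGRF1 against Col-0. PUB22 ranged from 0.16 to 0.40 in the mutant against WS and from 0.27 to 0.60 in P35S:rGRF3 against Col-0. In all of these the arrays of the groups overlapped when none was left out.

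Counts of calls depended on the settings, and the cause was not tested. With array weights 3017 probe sets were called in P35S:rGRF1 against Col-0 where equal weights gave 1429, and 4 related genes (PUB23, GRX480, PUB19 and ORA47) where these gave 0. With weights 2 related genes were called in P35S:rGRF3 against Col-0 and 11 in the mutant against Col-0. With only the 2 groups compared, 919 probe sets were called in P35S:rGRF1 and 621 in P35S:rGRF3 against Col-0. In the mutant against WS that setting gave 5 related genes, beside 2354 probe sets where the main fit gave 1900. An offset of 16 gave 1 related gene in P35S:rGRF1 against Col-0 (1445 probe sets). Quantile normalization and median centring gave 2 each in P35S:rGRF3 against Col-0 (1475 and 1649 probe sets). With an array left out, the counts were 1158 to 1392 probe sets and 1 to 2 related genes in the mutant against WS, 586 to 1554 and 0 to 3 in P35S:rGRF1 against Col-0, and 973 to 1793 and 2 to 4 in P35S:rGRF3 against Col-0. With a replicate block the counts were 1796, 1327 and 1549 probe sets in these comparisons, and it changed no count of related genes. The numbers did not clearly pair the arrays, since deviations of same-numbered arrays correlated at -0.17 to 0.25, over 0.1 in 3 of 18 pairs. At WRKY53, however, replicate 1 lay above the genotype mean in all 5 genotypes (log2 deviations of 0.17 to 0.55). Its replicate 3 was the lowest array in every genotype but the mutant. The other members did not have this pattern.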
